A study of Mus musculus with 7 samples.

Results

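The genes described here are 9 genes of extracellular nucleotide and adenosine signalling, of 23361 genes in the expression table: the adenosine receptor genes Adora2a, Adora2b and Adora3, the ATP-gated channel genes P2rx4 and P2rx7, the nucleotide receptor genes P2ry6, P2ry12 and P2ry14, and Entpd1, which encodes the ecto-enzyme CD39. They were chosen by gene symbol, with no threshold on any value. The group was proposed as purinergic and adrenergic receptors, but 0 of the 9 is an adrenergic receptor gene, so the adrenergic receptor genes were read from a separate list. The list itself was drawn up when FPKM and fragment values of these 7 libraries were already known, so their levels and changes are a description, and nothing is read from how many of them were called.

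Gene expression was measured by RNASeq in macrophages from the regenerative bridge, the tissue that forms inside a conduit between the stumps of a cut sciatic nerve. All mice were BALB/cJ with no engineered allele, and each had the left sciatic nerve transected and at once repaired with an empty conduit. Age is not given in the sources used here for these animals. Cells were sorted as lineage negative and positive for F4/80, CD14, CD11b and CD16/32 at day 5 (n = 3 libraries), day 14 (n = 2) or day 28 (n = 2) after repair, and there was no uninjured group. Libraries are given as independent biological replicates, and whether each holds 1 mouse or a pool is not stated.

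Cells release ATP and other nucleotides when they are stressed or injured. P2X channels open on binding ATP, whereas P2Y receptors signal through G proteins and respond to ATP, ADP, UDP or UDP-sugars. CD39 degrades ATP and ADP to AMP, CD73 turns AMP into adenosine, and adenosine acts on its own G protein-coupled receptors, of which the products of Adora2a and Adora2b raise cyclic AMP. In macrophages the channel encoded by P2rx7 is known for activation of the inflammasome, while signalling through cyclic AMP is known to restrain inflammatory gene expression.

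The libraries held 18027190 to 35247116 fragments in genes, and 12858 genes had enough fragments to be tested. Transcripts of the sort markers were abundant, with 195 to 470 FPKM (fragments per kilobase of transcript, scaled to library size) for Emr1, which encodes F4/80, and 201 to 397 FPKM for Itgam, which encodes CD11b. Of the 8 macrophage markers measured, Emr1, Cd14 and Fcgr1 were called lower at day 28 than at day 5, as were 7.51% of all genes tested. Summed markers of neutrophils were 260 to 289 FPKM for day 5, 528 to 540 FPKM for day 14 and 119 to 263 FPKM for day 28. This sum was mostly S100a8 and S100a9, and none of the 5 genes tested in the list was called in any comparison. Ly6G, a granulocyte marker, was among those used to exclude cells in the sort. Summed fibroblast markers reached 147 FPKM in day 14 replicate 1, against 21.5 to 55.2 FPKM in the other libraries, and Thy1.2, a fibroblast surface marker, was among those used to exclude cells in the sort. The dendritic cell list summed to 14.7 to 31.3 FPKM in day 5 libraries and 298 to 314 FPKM in day 28 libraries, mostly Itgax. Itgax and Ccr7 of that list were called higher at day 28 than at day 5, and Zbtb46 was at or under 1.62 FPKM in every library. The platelet list summed to 1481 to 2122 FPKM in day 5 libraries and 267 to 343 FPKM in day 28 libraries, with Pf4 and Ppbp called lower, while Itga2b, the platelet integrin gene, was at 12 to 27 fragments per library. Schwann cell markers summed to 153 to 294 FPKM, endothelial markers to 3.75 to 27.1 FPKM, mast cell markers to 10.7 to 42.1 FPKM, T cell markers to 3.92 to 13.8 FPKM, B cell markers to 4.42 to 10.7 FPKM and eosinophil markers to 1.79 to 5.71 FPKM. Ms4a2, Epx and Pax5 were at or under 3 fragments in every library. The part of other cells in the results below was not tested except where a value is given.

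All 9 genes passed the filter on low counts. P2rx4 had the highest level per length at every time point, with 176 ± 7.58 FPKM at day 5 (SD, n = 3), 160 ± 32.5 FPKM at day 14 (n = 2) and 118 ± 7.41 FPKM at day 28 (n = 2), and its libraries did not overlap those of the next gene on any day. Its mean over all libraries lay at percentile 95.6 of the genes tested. At day 5 Adora2b came next and its libraries overlapped those of P2ry6. At days 14 and 28 P2ry6 stood above Adora2b without overlap. Entpd1, P2rx7 and Adora2a followed on every day, and the libraries of P2rx7 and Adora2a overlapped each time. P2ry12 and P2ry14 were lower, and Adora3 was the lowest member on each day, at percentile 19.8.

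**Figure D1:**
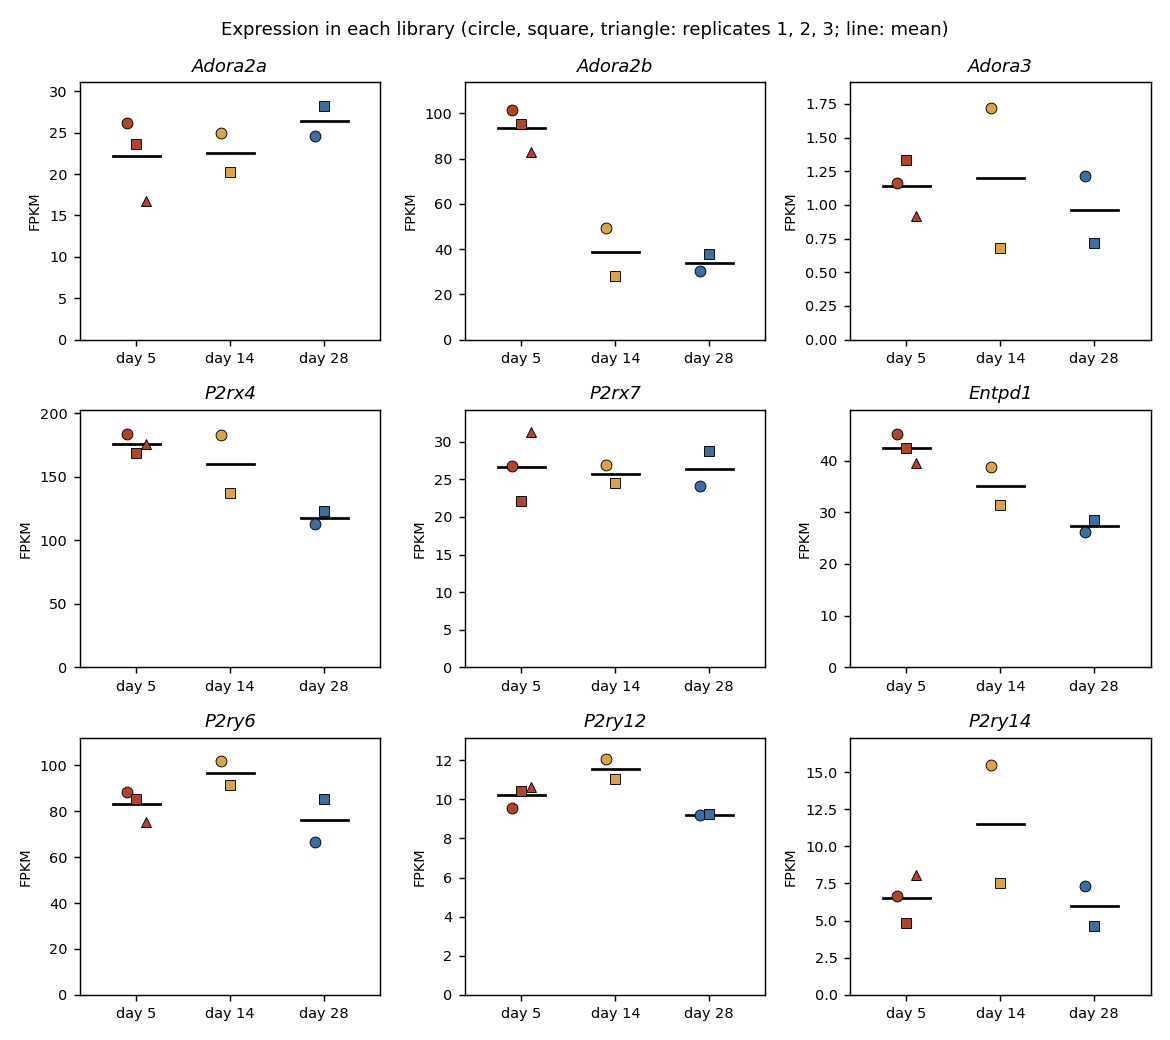
FPKM (linear axis from 0) of the 9 genes in each of the 7 libraries, by day after repair, with circle, square and triangle for replicates 1, 2 and 3 and a line for the mean. Adora2b is at 83.1 FPKM or more in the 3 day 5 libraries and at 49.6 FPKM or less in the 4 later ones, while Adora2a stays between 16.8 and 28.2 FPKM.

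Among the adenosine receptor genes, Adora2b fell early and stayed low. It was at 102, 95.3 and 83.1 FPKM in the day 5 libraries, at 49.6 and 28.3 FPKM at day 14 and at 30.4 and 37.7 FPKM at day 28. Every later library lay below every day 5 library, and days 14 and 28 overlapped. The log2 fold change was -1.26 ± 0.22 (SE) from day 5 to day 14, a 2.39-fold lower level (edgeR quasi-likelihood test, adjusted p = 0.0209), and -1.44 ± 0.22 from day 5 to day 28, a 2.72-fold lower level (adjusted p = 0.00447). From day 14 to day 28 it was -0.19 ± 0.23 (adjusted p = 0.786). The day 14 call was lost without day 5 replicate 1, 2 or 3 (adjusted p = 0.0703, 0.0673 and 0.0668), and the day 28 call without day 28 replicate 1 (log2 fold change -1.29, adjusted p = 0.0610). In bulk RNA, fewer cells that express a gene and less RNA of it per cell cannot be told apart.

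Adora2a encodes the other adenosine receptor of this kind in the group. It was at 26.1, 23.6 and 16.8 FPKM at day 5, at 24.9 and 20.3 FPKM at day 14 and at 24.6 and 28.2 FPKM at day 28. The 3 time points overlapped, and the log2 fold change to day 28 from day 5 was 0.26 ± 0.18 (adjusted p = 0.354). Within a library, the ratio of Adora2b to Adora2a FPKM was 3.89, 4.04 and 4.96 at day 5, 1.99 and 1.40 at day 14 and 1.23 and 1.34 at day 28. The ratio was thus above 3 in every day 5 library and below 2 in every later library, with no overlap between day 5 and either later day. Of the summed FPKM of the 3 adenosine receptor members, Adora2b made up 80.2 ± 1.98% at day 5 (SD, n = 3), 61.3 ± 5.34% at day 14 (n = 2) and 55.3 ± 1.81% at day 28 (n = 2).

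Adora3, whose product lowers cyclic AMP, was scarce, with few fragments but more than 3 in every library. It was at 1.16, 1.33 and 0.915 FPKM at day 5, at 1.72 and 0.677 FPKM at day 14 and at 1.21 and 0.715 FPKM at day 28, from 19 to 67 fragments per library. The highest and the lowest of the 7 libraries were both of day 14, the days overlapped, and no comparison was called. In GENCODE on GRCm38, Adora3 (chromosome 3, bases 105870858 to 105908926) shares 20.9% of its exonic bases with Tmigd3 on the same strand, so its fragments are uncertain. Tmigd3 had no entry under that name in the expression table, so its level could not be read.

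Both P2X genes lie next to each other on chromosome 5, 16112 bases apart (P2rx7 at bases 122643911 to 122691432 and P2rx4 at 122707544 to 122729738, GRCm38), and P2rx4 was called where P2rx7 was not. P2rx4, which encodes a channel that is also found on lysosomes, was at 184, 169 and 175 FPKM at day 5, at 183 and 137 FPKM at day 14 and at 112 and 123 FPKM at day 28. Both day 28 libraries lay below the other 5, and the day 14 libraries were split, replicate 1 within the day 5 range and replicate 2 below it. The log2 fold change from day 5 to day 28 was -0.57 ± 0.14, a 1.48-fold lower level (adjusted p = 0.0273). It was -0.13 ± 0.14 over the first interval, from day 5 to day 14 (adjusted p = 0.610), and -0.44 ± 0.15 from day 14 to day 28 (adjusted p = 0.295). The call from day 5 to day 28 was lost without any 1 of the day 5 replicates 1, 2 and 3 (adjusted p = 0.0912, 0.0712 and 0.0768) or of the day 28 replicates 1 and 2 (0.161 and 0.0761), while without day 14 replicate 2 the fall from day 14 to day 28 was called (log2 fold change -0.63, adjusted p = 0.0277).

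P2rx7, the channel gene tied to the inflammasome, was at 26.7, 22.2 and 31.3 FPKM at day 5, at 26.9 and 24.5 FPKM at day 14 and at 24.1 and 28.8 FPKM at day 28. All 4 later libraries lay within the day 5 range, and the 3 log2 fold changes were -0.02, 0.04 and 0.02 with SE of 0.15 to 0.17. The ratio of P2rx4 to P2rx7 FPKM ran from 5.61 to 7.61 at day 5, was 6.79 and 5.60 at day 14 and 4.67 and 4.27 at day 28. Day 28 lay below all other libraries in this ratio.

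Of the P2Y genes, P2ry6 encodes the receptor for UDP, which is known for its part in phagocytosis by microglia. It was at 88.4, 85.3 and 75.3 FPKM at day 5, at 102 and 91.5 FPKM at day 14 and at 66.5 and 85.4 FPKM at day 28. Both day 14 libraries lay above the other 5, yet the difference to day 5 (log2 fold change 0.23 ± 0.14, adjusted p = 0.340) and that to day 28 (-0.35 ± 0.15, adjusted p = 0.399) were not called.

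P2ry12 encodes an ADP receptor of platelets and microglia. It was at 9.58, 10.4 and 10.6 FPKM at day 5, at 12.04 and 11.025 FPKM at day 14 and at 9.19 and 9.26 FPKM at day 28. Day 14 was highest and day 28 lowest with no overlap between the 3 time points, but the spread was small and no comparison was called (log2 fold change -0.32 ± 0.13 from day 14 to day 28, adjusted p = 0.384). Of the platelet list, Gp9 was at 0 to 12 fragments per library, while Pf4 was at 257 to 2067 FPKM and Ppbp at 2.70 to 53.9 FPKM. Pf4 and Ppbp were called lower at days 14 and 28 than at day 5. The part of platelets in the P2ry12 values was not tested.

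P2ry14, the receptor gene for UDP-glucose, was at 6.63, 4.85 and 8.10 FPKM at day 5, at 15.5 and 7.56 FPKM at day 14 and at 7.34 and 4.65 FPKM at day 28. Day 14 replicate 1 stood apart from the other 6 libraries. Day 14 replicate 2 lay within the day 5 range and just above both day 28 libraries, so days 14 and 28 did not overlap. The log2 fold change from day 5 to day 14 was 0.82 ± 0.32 (adjusted p = 0.159), and it was 0.25 without day 14 replicate 1. That from day 14 to day 28 was -0.93 ± 0.36 (adjusted p = 0.346), and without day 14 replicate 2 it was called (-1.35, adjusted p = 0.0334). Day 14 replicate 1 was also the library with 147 FPKM of summed fibroblast markers, whose part in this value was not tested. P2ry12, P2ry13 and P2ry14 lie on chromosome 3 inside Med12l, a gene of the opposite strand, and the sources used here do not say whether strand was used in counting. Med12l itself had 9 to 39 fragments per library, against 381 to 759 for P2ry12 and 137 to 429 for P2ry14, and it shares 9 exonic bases with P2ry12 and 0 with P2ry14.

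Entpd1, the gene of the enzyme that opens the path from ATP to adenosine, was at 45.2, 42.5 and 39.5 FPKM at day 5, at 38.7 and 31.3 FPKM at day 14 and at 26.1 and 28.4 FPKM at day 28. The 3 time points did not overlap and descended in that order. The log2 fold change from day 5 to day 28 was -0.62 ± 0.13, a 1.54-fold lower level (adjusted p = 0.0134). The first step, up to day 14 (-0.27 ± 0.13, adjusted p = 0.230), and the next, up to day 28 (-0.36 ± 0.14, adjusted p = 0.350), were not called. The call was lost without day 5 replicate 1 (adjusted p = 0.0552), day 5 replicate 2 (0.0501) or day 28 replicate 1 (0.1005). Emr1, the gene of the sort marker F4/80, had a log2 fold change of -1.01 ± 0.17 in the same comparison (adjusted p = 0.00650), and its part in the Entpd1 value was not tested.

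**Figure D2:**
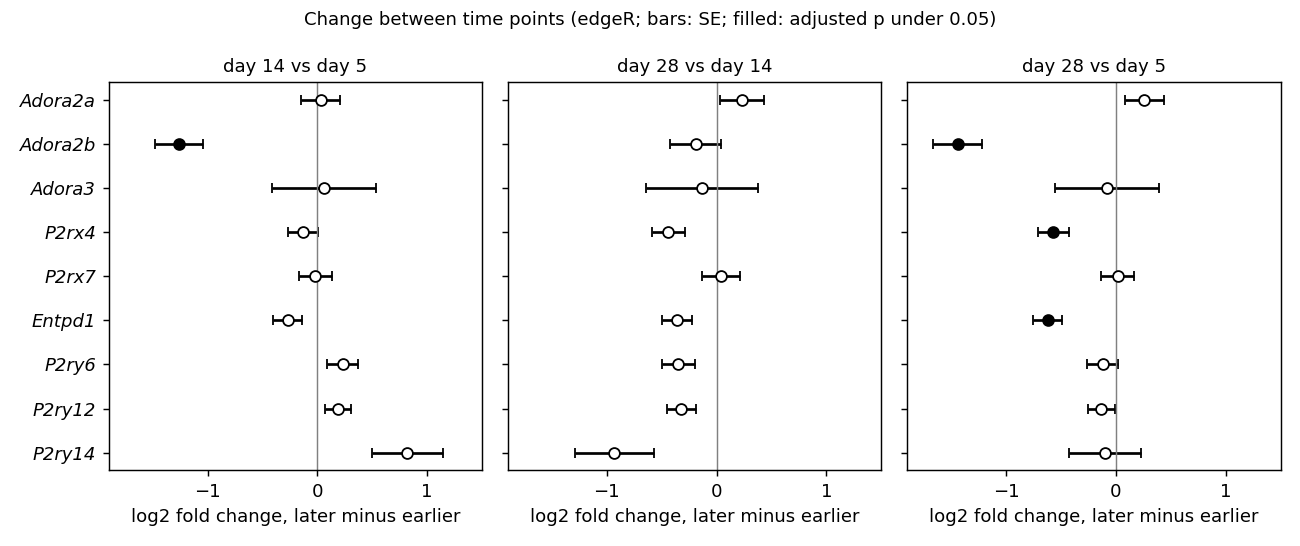
Log2 fold change (later minus earlier) of the 9 genes in the 3 comparisons, with SE as bars and filled points for an adjusted p under 0.05 in edgeR. Filled points are Adora2b at -1.26 where day 14 is compared with day 5, and Adora2b, P2rx4 and Entpd1 at -1.44, -0.57 and -0.62 from day 5 to day 28.

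Read as a group, 1 of the 9 genes was called from day 5 to day 14, Adora2b among the lower genes. Over all genes tested, 2.84% were called higher and 1.94% lower in that comparison. From day 14 to day 28, 0 of the 9 were called by edgeR or DESeq2. Of the 12858 genes tested, edgeR called 8 (0.0622%) and DESeq2 called 346. At an unadjusted p under 0.05 were 5 of the 9 in edgeR and 4 in DESeq2, beside 1570 and 1503 of all genes. From day 5 to day 28, 3 of the 9 were called, all lower, where 7.74% of all genes were called higher and 7.51% lower. The median log2 fold change of the 9 genes was 0.03, -0.32 and -0.12 in the 3 comparisons, beside 0.03, 0.01 and 0.03 over all genes tested. Both comparisons with day 5 share the day 5 libraries.

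The sequence upstream of the 3 genes called is shown because they carry the calls, Adora2b at days 14 and 28 and P2rx4 and Entpd1 at day 28. Each line gives the 250 bases before the start in RefSeq on GRCm38.p6, plus strand, with the core of the cyclic AMP response element (TGACG, or CGTCA on the other strand) in capitals. The windows are chr11:62248734-62248983 for Adora2b, chr5:122707294-122707543 for P2rx4 and chr19:40612116-40612365 for the upstream start of Entpd1.
Adora2b: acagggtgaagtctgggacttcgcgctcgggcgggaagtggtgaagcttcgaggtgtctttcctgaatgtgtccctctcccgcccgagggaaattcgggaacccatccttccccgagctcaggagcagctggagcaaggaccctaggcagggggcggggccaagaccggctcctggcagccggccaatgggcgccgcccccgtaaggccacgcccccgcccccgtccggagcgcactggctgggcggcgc
P2rx4: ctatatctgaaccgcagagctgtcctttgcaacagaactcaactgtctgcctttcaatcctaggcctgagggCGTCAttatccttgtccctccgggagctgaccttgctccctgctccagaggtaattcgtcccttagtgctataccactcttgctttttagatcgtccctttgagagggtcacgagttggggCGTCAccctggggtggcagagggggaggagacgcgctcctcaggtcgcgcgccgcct
Entpd1: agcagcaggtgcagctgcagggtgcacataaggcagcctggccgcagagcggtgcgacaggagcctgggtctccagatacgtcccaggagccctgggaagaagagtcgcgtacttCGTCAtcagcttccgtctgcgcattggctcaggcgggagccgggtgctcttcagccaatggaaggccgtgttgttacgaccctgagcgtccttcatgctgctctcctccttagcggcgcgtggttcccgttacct
The core was present in 2 copies before P2rx4, in 1 copy before Entpd1 and in 0 copies before Adora2b, and 17.8% of 32851 promoter windows of this length held it. Adora2b had the highest GC content of the 3, 69.6% against 57.2% and 62.4%, with 6 matches to the GC box (GGGCGG or CCGCCC), which 32.7% of windows held and which had 0 matches in the other two. The CCAAT box (CCAAT or ATTGG, in 33.9% of windows) matched in 1 place before Adora2b, 2 before Entpd1 and 0 before P2rx4. The hypoxia response core (ACGTG or CACGT, in 16.6% of windows) and the AP-1 core (TGANTCA, in 6.75%) were in none of the 3, and ACGTG can share bases with TGACG. These are letter matches and say nothing on binding. Adora2a and P2ry6 were named only.

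The other receptors of the family were mostly scarce. Of 11 further receptor genes, 7 were tested, and 1 was called, P2rx5, which rose from day 5 to day 28 on few fragments. In that comparison 7.74% of all genes tested were called higher. P2rx5, a channel gene, had 2, 7 and 0 fragments at day 5, 5 and 38 at day 14 and 50 and 38 at day 28. The 2 day 28 libraries lay above all of day 5, and day 14 was split (log2 fold change 3.53 ± 1.03 from day 5 to day 28, adjusted p = 0.0482). The call was lost without day 5 replicate 1 or 3 or either day 28 library (adjusted p up to 0.154). P2ry2, the ATP and UTP receptor gene 21919 bases from P2ry6, was at 53.8, 38.6 and 30.6 FPKM at day 5, 41.3 and 19.4 FPKM at day 14 and 16.3 and 23.4 FPKM at day 28, and was not called (-1.04 ± 0.33 from day 5 to day 28, adjusted p = 0.0635). P2ry13, an ADP receptor gene beside P2ry12, was at 2.79 to 3.32 FPKM in the day 5 libraries, 6.94 and 3.97 FPKM at day 14 and 3.72 and 2.81 FPKM at day 28, with its highest value in day 14 replicate 1 as for P2ry14. The adenosine receptor gene Adora1 did not exceed 0.0654 FPKM in any library.

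Genes that release, break down or take up nucleotides and adenosine changed in both directions. Of 23 genes 18 were tested. By day 14 against day 5, 2 rose and 1 fell, where 2.84% of all genes tested were called higher and 1.94% lower. Between days 14 and 28, 0 were called, where 0.0622% of all genes were called. By day 28 against day 5, 5 rose and 3 fell, beside 7.74% higher and 7.51% lower over all genes tested. Nt5e, which encodes CD73, was at 2.91, 3.28 and 4.36 FPKM at day 5, 3.17 and 6.13 FPKM at day 14 and 8.85 and 8.12 FPKM at day 28. It rose while Entpd1 fell (log2 fold change 1.29 ± 0.26 from day 5 to day 28, adjusted p = 0.0132), and the ratio of Entpd1 to Nt5e FPKM went from between 9.07 and 15.5 at day 5, through 12.2 and 5.11 at day 14, to 2.95 and 3.50 at day 28. The Nt5e call was lost without day 5 replicate 1 or 2 or either day 28 library (adjusted p up to 0.105). Acpp, an ectophosphatase gene, also rose to day 28, from 5 to 12 fragments at day 5 to 92 and 25 fragments, and was lost without any 1 of the day 5 and day 28 libraries (adjusted p up to 0.237).

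Downstream of adenosine, Ada, the gene of adenosine deaminase, was at 37.6 to 40.2 FPKM in the day 5 libraries, at 42.2 and 35.7 FPKM at day 14 and at 24.5 and 26.6 FPKM at day 28. It fell by day 28 against day 5 (log2 fold change -0.60 ± 0.11, adjusted p = 0.00990), with -0.60 ± 0.12 and an adjusted p of 0.09997 against day 14. Pnp, which acts after it on inosine, fell as well by day 28 (-0.74 ± 0.15, adjusted p = 0.0137). Ada was not called without day 28 replicate 1 (adjusted p = 0.0832), nor Pnp without day 5 replicate 1 or either day 28 library (up to 0.0779).

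The transporters moved apart from each other. Slc28a2, a sodium-coupled nucleoside carrier gene, fell from 28.5, 25.3 and 25.8 FPKM in the day 5 libraries to 17.4 and 10.9 FPKM by day 14, then to 8.51 and 6.91 FPKM by day 28. Its 3 time points did not overlap (log2 fold change -0.90 ± 0.19 to day 14, adjusted p = 0.0352, and -1.76 ± 0.20 to day 28, adjusted p = 0.00130). Slc29a1, which encodes an equilibrative carrier, rose from between 35.1 and 36.2 FPKM to 51.5 and 68.6 FPKM by day 14, with 57.3 and 55.9 FPKM at day 28 (0.77 ± 0.13, adjusted p = 0.0197, and 0.69 ± 0.13, adjusted p = 0.0103). Slc29a3, its lysosomal relative, rose by day 28 (0.40 ± 0.11, adjusted p = 0.0356). Panx1, the gene of an ATP release channel, rose from 3.04, 3.60 and 3.46 FPKM to 5.98 and 7.70 FPKM, then to 9.63 and 8.04 FPKM (1.04 ± 0.19, adjusted p = 0.0212, and 1.41 ± 0.18, adjusted p = 0.00225). The day 28 calls of Slc28a2 and Panx1 held without each library in turn. The day 14 calls of Slc28a2, Panx1 and Slc29a1 were lost without any 1 day 5 library, those of Slc28a2 and Panx1 also without day 14 replicate 2, and that of Slc28a2 also without either day 28 library (adjusted p up to 0.109). At day 28, Slc29a1 was lost without day 28 replicate 1 (adjusted p = 0.0810) and Slc29a3 without any 1 of the day 5 and day 28 libraries (up to 0.145). Entpd4 was listed at 0 in all libraries.

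**Figure D3:**
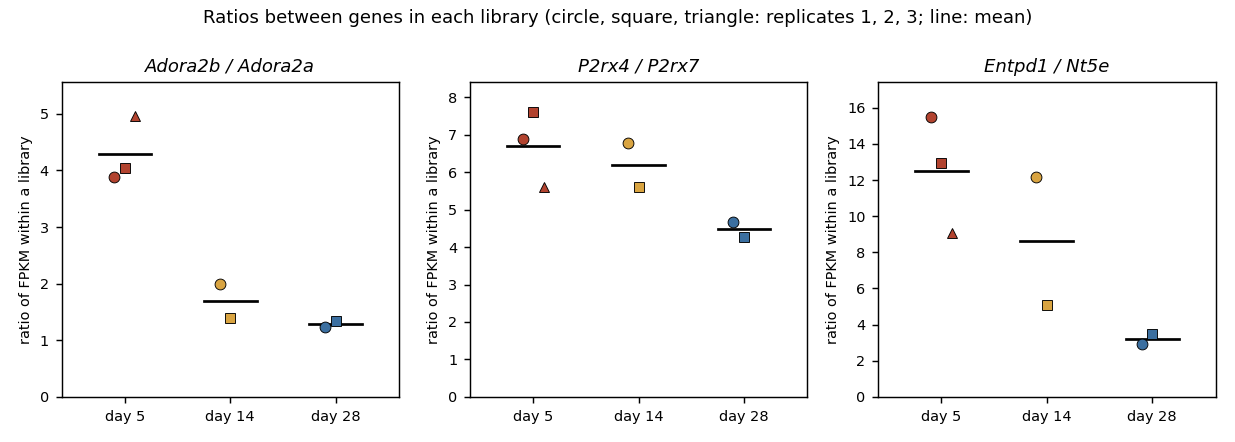
Ratio of FPKM within each library for 3 gene pairs (linear axes from 0), by day after repair, with circle, square and triangle for replicates 1, 2 and 3 and a line for the mean. The ratio of Adora2b to Adora2a is 3.89 or more at day 5 and 1.99 or less later, and that of Entpd1 to Nt5e is at 2.95 and 3.50 in the day 28 libraries.

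Adrenergic receptors, like those for adenosine, signal through G proteins. The 8 adrenergic receptor genes described here had few or no fragments, and 4 of them were tested. Adra1a was at 85 to 153 fragments at day 5 and 38 to 77 later, and edgeR did not call it (log2 fold change -1.25 ± 0.39 from day 5 to day 28, unadjusted p = 0.00959, adjusted p = 0.0578), whereas DESeq2 did for day 28 against day 5. Adra2b had 12 to 43 fragments per library, Adra2a 0 to 14 and Adrb1 2 to 12, none of them called by edgeR or DESeq2. Adra1d did not exceed 3 fragments, Adra2c did not exceed 2, and Adra1b and Adrb3 were listed at 0. Among 7 genes of receptor kinases and arrestins, which switch such receptors off, 1 was called, at day 28 against day 5. In that comparison 7.74% of all genes tested were called higher and 7.51% lower. Adrbk2, a receptor kinase gene, rose from day 5 to day 28 (log2 fold change 0.54 ± 0.15, adjusted p = 0.0383), and the call was lost without any 1 of the day 5 and day 28 libraries (up to 0.164).

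Cyclic AMP signalling lies downstream of Adora2a and Adora2b. Of 25 genes 21 were tested. By day 14 against day 5, 1 fell and 0 rose, where 1.94% of all genes tested were called lower and 2.84% higher. By day 28 against day 5, 2 fell and 2 rose, where 7.51% of all genes were called lower and 7.74% higher. Nothing is read from these counts. Crem, a transcription factor gene that is itself induced by cyclic AMP, was at 45.9, 37.4 and 51.7 FPKM at day 5, at 24.8 and 15.3 FPKM at day 14 and at 17.8 and 18.4 FPKM at day 28. As with Adora2b, all later libraries lay below day 5 (log2 fold change -1.14 ± 0.21, adjusted p = 0.0234, and -1.32 ± 0.21, adjusted p = 0.00511). Pde4b, which encodes a phosphodiesterase that degrades cyclic AMP, fell by day 28 (-0.64 ± 0.17, adjusted p = 0.0328), whereas Adcy7, an adenylyl cyclase gene, rose (0.73 ± 0.13, adjusted p = 0.00720) and so did Rapgef3, a cyclic AMP-gated exchange factor gene with means of 0.265 and 0.937 FPKM (1.83 ± 0.40, adjusted p = 0.0177). The Adcy7 call held without each library in turn. The Crem call at day 14 was lost without day 5 replicate 1 or 3, day 14 replicate 2 or day 28 replicate 2 (adjusted p up to 0.0847), and that at day 28 without day 28 replicate 1 (0.0648). Pde4b was lost without any 1 of the day 5 and day 28 libraries (up to 0.202), and Rapgef3 without day 5 replicate 2 or 3 or either day 28 library (up to 0.103). Gnas, the gene of the stimulatory G protein, did not pass the test (log2 fold change 0.10 and 0.04 against day 5).

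The inflammasome genes that act after P2rx7 fell in part, while P2rx7 itself was not called. Of 6 genes, all tested, 2 fell by day 14 and 3 by day 28, against day 5, and none rose. Over all genes tested, 1.94% and 7.51% were called lower in these comparisons, and 2.84% and 7.74% higher. Il1b, the cytokine gene, was at 1104, 1205 and 1225 FPKM at day 5, 735 and 618 FPKM at day 14 and 783 and 728 FPKM at day 28 (log2 fold change -0.79 ± 0.13, adjusted p = 0.0184, and -0.63 ± 0.13, adjusted p = 0.0129). Nlrp3, the sensor gene, was at 262, 236 and 235 FPKM, then 140 and 134 FPKM, then 110 and 181 FPKM (-0.82 ± 0.19, adjusted p = 0.0447, and -0.73 ± 0.19, adjusted p = 0.0323). Both lay lower in all later libraries than at day 5. Il18 fell by day 28 (-1.17 ± 0.27, adjusted p = 0.0223). Casp1, Pycard and Nek7 were not called. The Il1b and Nlrp3 calls at day 14 were lost without any 1 day 5 library, Nlrp3 also without day 14 replicate 2 (adjusted p up to 0.130). At day 28 they were lost without day 5 replicate 2 or 3 or day 28 replicate 1, Il1b also without day 28 replicate 2 and Nlrp3 also without day 5 replicate 1, where without day 28 replicate 1 the log2 fold change of Nlrp3 was -0.42 (up to 0.143). Il18 was lost without day 5 replicate 1 or 2 or either day 28 library (up to 0.115).

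P2ry12 is often read with other genes known from microglia, the macrophages of the central nervous system. Of 10 such genes 8 were tested, P2ry12 and P2ry13 among them, and 3 rose by day 14 and by day 28, against day 5. The shares called higher over all genes tested were 2.84% and 7.74%. Cx3cr1, a chemokine receptor gene, was at 4.47, 7.15 and 3.56 FPKM at day 5, at 12.6 and 25.3 FPKM at day 14 and at 44.1 and 36.3 FPKM at day 28. Its 3 time points did not overlap (log2 fold change 1.92 ± 0.32, adjusted p = 0.0189, and 3.01 ± 0.32, adjusted p = 0.00107). Gpr34, a lysophospholipid receptor gene, rose at both later days, with log2 fold changes of 1.73 ± 0.19 and 1.90 ± 0.19 (adjusted p = 0.00640 and 0.000819), as did Olfml3 with 0.98 ± 0.21 and 1.76 ± 0.21 (adjusted p = 0.0366 and 0.00163). P2ry12, P2ry13, Fcrls, Tmem119 and Siglech were not called in any comparison, and Sall1 and Slc2a5 did not exceed 5 and 2 fragments. Fcrls, at 34.4 to 72.7 FPKM, had a log2 fold change of -0.22 ± 0.31 at day 28 against day 5. That of Tmem119 was 0.81 ± 0.33, and that of Siglech was 2.11 ± 1.06 on 0 to 37 fragments per library. The Gpr34 calls and the day 28 calls of Cx3cr1 and Olfml3 held without each library in turn. Cx3cr1 at day 14 was lost without day 5 replicate 1 or 3 (adjusted p up to 0.0717), and Olfml3 at day 14 in all but the fit without day 14 replicate 1 (up to 0.188). At day 28 against day 5, the median log2 fold change was 0.03 over all genes tested. Over the tested genes of each list it was 0.52 for the other purinergic receptors (7 genes), 0.12 for breakdown, release and uptake (18) and 0.60 for the adrenergic receptors (4). It was 0.21 for kinases and arrestins (7), -0.02 for cyclic AMP signalling (21), -0.41 for the inflammasome genes (6) and 1.29 for the microglia-type genes (8). The 0.52 is the value of P2rx1, which had 6 to 41 fragments per library, while the more abundant P2ry2 was at -1.04. Of the 4 adrenergic receptor genes, Adra1a was at -1.25, and Adra2a, Adra2b and Adrb1 were at 0.56 to 0.82 on 0 to 43 fragments.

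**Figure D4:**
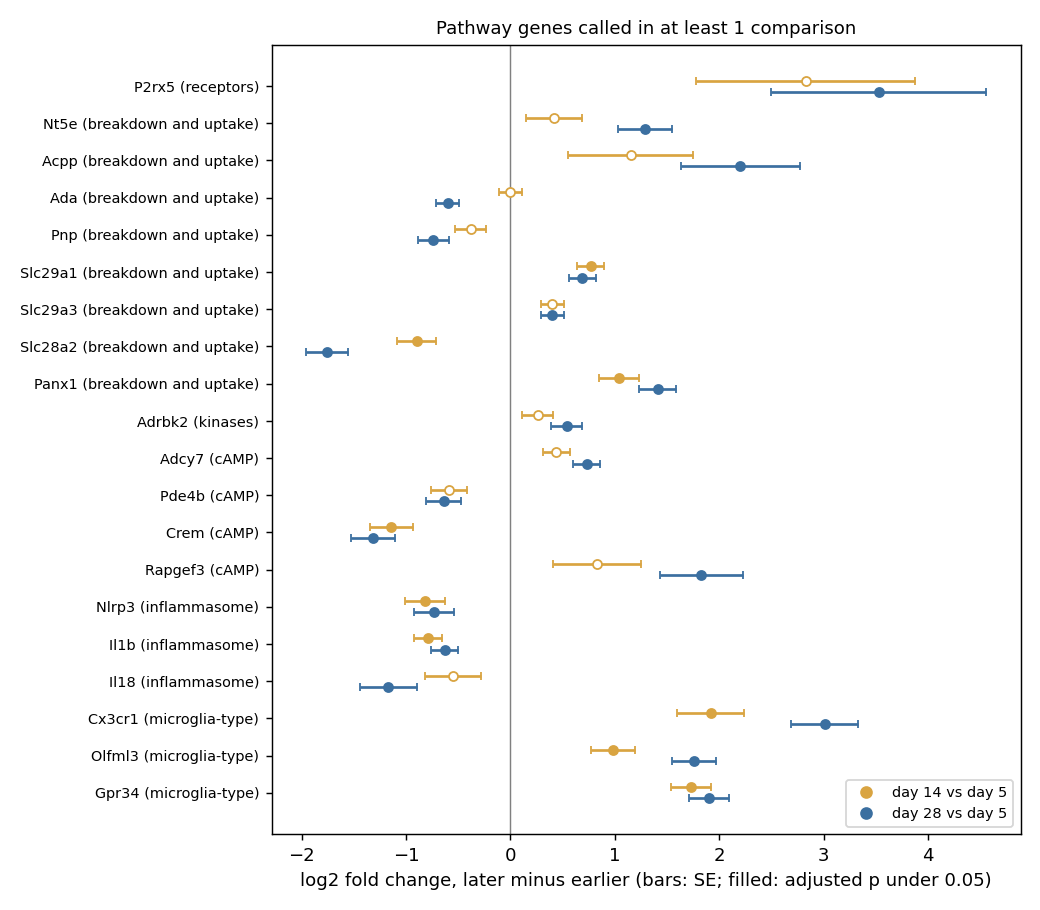
Log2 fold change (later minus earlier) against day 5 of the pathway genes called in at least 1 comparison, at day 14 and at day 28, with SE as bars and filled points for an adjusted p under 0.05 in edgeR. Slc28a2 at -1.76 and Crem at -1.32 are among the lowest at day 28, and Cx3cr1 lies at 1.92 at day 14 and 3.01 at day 28.

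Among 7613 genes with a mean of at least 5 FPKM, the pattern over the 7 libraries most like that of Adora2b was that of Cdc42ep4 and Sde2 (Pearson r of 0.995 each on log2(FPKM + 1)), and 274 genes passed an r of 0.95. The genes most like Entpd1 were Emr1 (0.996) and Tfrc (0.994), and those most like P2rx4 were Csf3r (0.995) and Spon1 (0.993). For the members that were not called the match was looser and fewer genes passed 0.95, from 1 to 7 for each member. The closest pair for each were Akna (0.978) and Polr3e (0.957) for Adora2a, Fbxl19 (0.981) and 0610039K10Rik (0.977) for P2ry6, Zfp414 (0.980) and Zfyve27 (0.943) for P2rx7, Med16 (0.961) and Prrg2 (0.956) for P2ry12, Chp2 (0.955) and Apobec3 (0.933) for P2ry14, and Chmp1b (0.973) and Senp3 (0.9499) for Adora3. The 7 points come from 3 time points, so these values are a description of likeness. A called member differs between days as many other called genes do, so nothing is read from its closer matches.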

How the data were processed

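RNA from sorted macrophages was sequenced as polyA-selected NEBNext Ultra libraries (3 at day 5, 2 at day 14, 2 at day 28). Per the labels, the authors used cutadapt 1.8, TopHat2 2.0.13 and Cuffdiff 2.2.1 with mm10. Use of strand and the sharing of reads that map to several places are not given in the sources used here, which makes overlapping or near-identical genes uncertain. For each gene and library the authors deposited expected counts (fragments per gene, 18027190 to 35247116 per library), a scaled signal (fragments times 1 Cuffdiff factor per library) and FPKM. The detection floor of 3 fragments allows for counting error alone.

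After rounding, the expected counts went into edgeR 4.0.16 (R 4.3.3), with TMM scaling, filterByExpr on the 3 time points and the two-sided quasi-likelihood F test over all 7 libraries with time point as the factor (residual df of 4), Benjamini-Hochberg adjustment over 12858 genes in each of the 3 comparisons. A call is an adjusted p under 0.05. An SE was taken from the log2 fold change and its F value. P-values set the difference between time points against the spread between these libraries, which is estimated with information shared across the tested genes. Levels are FPKM, and a fold is that of the fit. The fits were tried on simulated data with known changes in 200 genes. Alternatives used DESeq2 1.42.0, limma 3.58.1, other scalings and filters, the replicate block and each library left out.

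The 9 genes, 7 pathway lists and 11 marker lists were chosen with earlier results of these data known. Named are every member, each pathway list gene that was called, every adrenergic receptor gene in the list, the 2 genes most like each member among those with a mean of at least 5 FPKM, and neighbouring genes. P2rx1, P2ry2, P2ry13, Adora1, Gnas, Entpd4, uncalled inflammasome and microglia-type genes, and marker genes were added after their values were seen. Some listed genes are not reported here and were left out of the list counts and sums. Promoters are from RefSeq, matched for 7 members. Tables were made with Python 3.11.15, numpy 2.4.6, pandas 2.3.3 and matplotlib 3.10.9.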

Additional observations from a re-analysis of the deposited data

How the results depend on the processing

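The calls of Adora2b, P2rx4 and Entpd1 against day 5 were made by DESeq2, both other scalings (DESeq2 size factors in edgeR, and the Cuffdiff factors), no expression filter, limma with a pseudocount of 1 or 0.1, and the fit of 2 time points. The limits are the 2 or 3 libraries per time point, where leaving out 1 library, of day 5 as well as of later days, often ended a call, and few fragments for Adora3 and P2rx5. Of same-numbered samples, 1 pair deviated together (correlation of 0.368 over 7613 genes). The other pairs gave 0.0433, -0.0329, 0.0179, -0.127 and -0.127, so the numbers were not taken as a pairing. Both pairs of days 14 and 28 give -0.127 by construction. With 2 libraries per day, deviations from the mean are equal and opposite, so this is 1 value. With the replicate block, 0, 0 and 1 of the 9 genes were called, taking the comparisons in the order day 14 against day 5, day 28 against day 14, then day 28 against day 5 (Adora2b, adjusted p = 0.0236), and 6, 0 and 735 of all genes. With the day 28 numbers crossed, chosen after seeing the data, the block gave 357, 63 and 1579 genes.

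For day 14 vs day 5, all genes called numbered 614 as reported, 1392 with DESeq2, 1429 without the filter, 252 and 277 with limma (pseudocounts of 1 and 0.1), 315 with 2 time points, and 52 to 1728 with 1 library left out. For day 28 vs day 14 the 8 became 346, 390, 0, 0 and 0 in that order, and 0 to 629 with 1 library left out. For day 28 vs day 5 the 1960 became 452 to 2746 with 1 library left out. Of the 9 genes, leaving out 1 library gave 0 to 1, 0 to 2 and 0 to 3 calls, and no filter gave 2 calls at day 14 vs day 5, P2ry14 being added (adjusted p = 0.0440).

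Directions turned only in comparisons that were not called. With the replicate block, day 14 vs day 5 was -0.13 for Adora2a (also with crossed numbers), 0.12 for P2rx7 (also crossed) and -0.002 for Adora3, and P2ry14 was 0.04 (crossed, 0.13) at day 28 vs day 5. With limma, Adora3 was -0.04 at day 14 vs day 5 (pseudocount of 0.1) and P2rx7 -0.01 at day 28 vs day 5 (both pseudocounts). With 1 library left out, log2 fold changes ran from -0.12 to 0.18 for Adora2a, -0.51 to 0.48 for Adora3, -0.35 to 0.06 for P2rx4 and -0.16 to 0.13 for P2rx7 at day 14 vs day 5, from -0.53 to 0.26 for Adora2b, -0.62 to 0.43 for Adora3 and -0.09 to 0.18 for P2rx7 at day 28 vs day 14, and from -0.56 to 0.24 for Adora3, -0.09 to 0.17 for P2rx7, -0.31 to 0.05 for P2ry6 and -0.48 to 0.16 for P2ry14 at day 28 vs day 5. The cause was not tested.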
